A study of Drosophila melanogaster with 7 samples.

Results

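High-score forks were replication forks whose labelled track was given a stall score of 0.5 or more on a scale from 0 to 1. They numbered 2882 of 12927 scored forks, or 22.3%, among 30573 forks called on 2L, 2R, 3L, 3R, 4 and X in 5 untreated libraries of S2 cells, a cultured Drosophila melanogaster line of embryonic origin. Low-score forks, the 10045 with scores from 0 to under 0.5, served as the comparison. The members were chosen by the score itself, so segment lengths and analogue fractions, which come from the same calls, are described below without a test.

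Nanopore sequencing of long DNA molecules detected EdU and BrdU, thymidine analogues that cells build into new DNA. Each library received 10 µM EdU, then 10 µM BrdU, then 50 µM thymidine for 20 min, so that each fork wrote EdU first and BrdU ahead of it. The control and replicates 1 and 2 had 7 min of EdU and 15 min of BrdU, and the latter are called the long-pulse replicates. Replicates 3 and 4, the short-pulse replicates, had 3 min and 6 min. No library used here carried a drug or a genetic change. Flasks labelled side by side were pooled, and no label states that a replicate was a culture of its own, so p-values reflect no more than sample-to-sample spread, part or all of which may be technical. The labels give a batch for each labelling scheme and a further one for the control, so the batch of the long-pulse and that of the short-pulse replicates cannot be told apart from the scheme, nor the batch of the control from its sequencing platform. DNA calls hold no expression markers, and the identity of the cells rests on the labels.

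A replication fork unwinds the double helix and copies both strands as it moves away from an origin. Forks can slow or stop at damaged bases, tightly bound proteins, active transcription units or DNA that folds on itself, and a stopped fork may restart or be rescued by a fork from the other side. On a labelled molecule a fork in steady motion leaves a BrdU track that fades as the chase begins, whereas a stall is looked for as an abrupt end of the track. The stall score of DNAscent, the neural network caller used by the authors, grades that end. It is a call on a molecule and not a direct observation of a stopped fork.

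The members came unevenly from the libraries. The control gave 259 of 1002 scored forks, 25.8% (exact 95% interval 23.2 to 28.7%). The long-pulse replicate 1 gave 848 of 4540, 18.7% (17.6 to 19.8%), and replicate 2 gave 1199 of 5886, 20.4% (19.3 to 21.4%). The short-pulse replicates, which shared a labelling scheme, lay farthest apart. Replicate 3 gave 71 of 387, 18.3% (14.6 to 22.6%), and replicate 4 gave 505 of 1112, 45.4% (42.5 to 48.4%). Of all forks called in replicate 3, 12.9% had a score, against 40.9% in replicate 4, so these shares rest on unlike parts of their forks. The scored part was 54.6% in the control, and 44.2% and 46.2% in the long-pulse replicates. Intervals here and below cover counting error only. The mean over libraries was 25.7% ± 11.4 (SD, n = 5), and it was 20.8% ± 3.47 (SD, n = 4) without the short-pulse replicate 4. Replicate 2 of the long scheme therefore supplied the most members and replicate 4 of the short scheme the highest share.

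Scores of the members had a median of 0.712, with quartiles of 0.597 and 0.867, and 254 members had the top value of exactly 1. The median was 0.700 in the control, 0.693 and 0.702 in the long-pulse replicates, and 0.736 and 0.758 in the short-pulse replicates. No gap in the distribution set the members apart. Just inside the threshold, from 0.5 to 0.55, lay 378 forks, with a median EdU segment of 4.96 kb and a median BrdU segment of 8.56 kb. Just outside it, from 0.45 to 0.5, lay 458 forks, with medians of 4.92 and 7.68 kb. Both sets pool all libraries, pulse lengths and caller versions. The shape of the distribution differed most in the short-pulse replicate 4, where only 9.98% of scored forks lay under 0.1, against 35.6% and 33.8% in the long-pulse replicates 1 and 2.

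**Figure D1:**
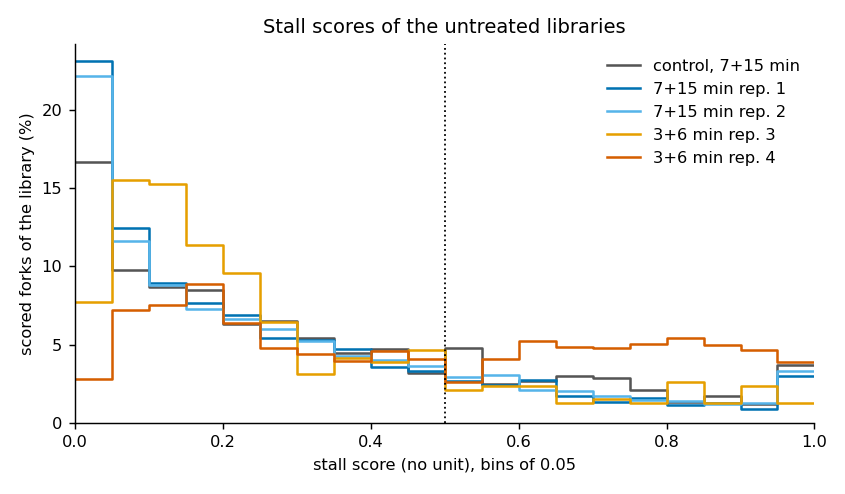
Distribution of stall scores in the 5 untreated libraries. The x axis is the score, without unit, in bins of 0.05, the y axis is the share of the scored forks of a library in percent, and each line is a library; the dotted line marks the threshold of 0.5. In the control and the long-pulse replicates the bin below 0.05 is the fullest and the last bin rises again, to 3.69%, 2.97% and 3.28%, whereas the short-pulse replicate 4 has a broad shoulder above 0.5, where 45.4% of its scored forks lie.

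Members lay on 2802 reads, and 82.0% of them were alone on their read as a fork call. A score could be given only to forks with room ahead of the BrdU end: the smallest distance from that end to the read end was 5.90 kb among high-score and 5.45 kb among low-score forks. Of the unscored forks, 14761 carried the code -3 and had a median of 0.674 kb of read ahead. Another 2854 carried the code -1, and all 2854 lay in or within 1 kb of a called termination. The code -2 was given to 31 forks. A called termination also lay within 1 kb of 8.81% of high-score forks and 8.17% of low-score forks. The files do not define the codes. The members therefore describe forks far from read ends and mostly away from called mergers.

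The caller version differed within libraries and moved with the score. DNAscent 4.0.1 produced all calls of the control and 4.0.3 all calls of the short-pulse replicates, while the files of the long-pulse replicates joined output blocks of both versions. Within the long-pulse replicate 1, 17.5% of 4071 scored forks were high-score forks with version 4.0.1 (16.4 to 18.7%), against 28.6% of 469 with 4.0.3 (24.5 to 32.9%). Within replicate 2 the shares were 19.8% of 5460 (18.7 to 20.9%) and 27.9% of 426 (23.7 to 32.5%). The blocks did not overlap between versions. In replicate 1 the 12 blocks of version 4.0.1 ran from 13.7% to 19.9% and the 2 blocks of 4.0.3 from 28.2% to 28.9%. In replicate 2 the 10 blocks of 4.0.1 ran from 16.2% to 22.8%, below the 27.9% of the lone 4.0.3 block. Whether the version or another property of those blocks goes with the share cannot be told apart. The difference between the short-pulse replicates, 18.3% against 45.4%, arose with the same version. Each segment value below is therefore given within versions as well.

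**Figure D2:**
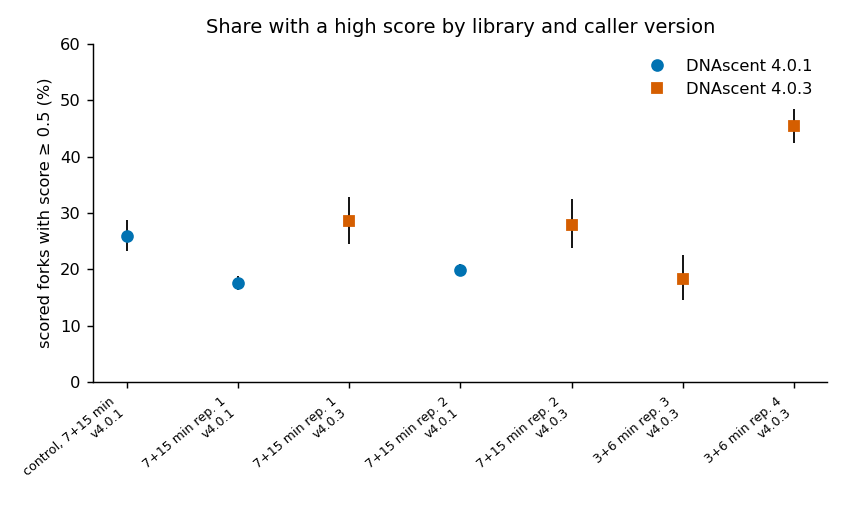
Share of scored forks with a stall score of 0.5 or more, in percent on the y axis, for each library and caller version on the x axis. Points are shares and bars exact 95% intervals. In the long-pulse replicates the 4.0.3 share lies above the 4.0.1 share, 28.6% against 17.5% and 27.9% against 19.8%, and the short-pulse replicate 4 stands highest at 45.4%.

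The EdU segment was laid down before the place at which the score is read, and it was somewhat shorter in high-score forks. In the control the medians were 5.03 kb for high-score and 5.25 kb for low-score forks. They were 4.95 against 5.38 kb in the long-pulse replicate 1 and 5.50 against 5.84 kb in replicate 2. In the short-pulse replicates they were 3.62 against 3.70 kb and 3.14 against 3.61 kb. All 5 libraries had the shorter median in high-score forks, while the quartiles of the classes overlapped widely. The mean log2 ratio of high-score over low-score medians was -0.10 ± 0.065 (SD, n = 5), a ratio of 0.933. With members of a score of 0.8 or more alone it was -0.036 ± 0.11 (SD, n = 5), and the median was then longer in high-score forks of 2 of 5 libraries. Within version 4.0.1 the ratios were 0.958 in the control, 0.999 and 0.993 in the long-pulse replicates. Within version 4.0.3 they were 0.893 and 0.856 in those replicates, and 0.979 and 0.870 in the short-pulse replicates. The mean log2 ratio was -0.024 in blocks of version 4.0.1 and -0.15 in blocks of version 4.0.3.

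BrdU segments, whose ends the score grades, showed no common direction across the libraries and differed between the caller versions. Medians in high-score and low-score forks were 8.21 and 7.90 kb among control forks. They were 8.10 and 8.69 kb in the long-pulse replicate 1, and 9.23 and 9.20 kb in replicate 2. In the short-pulse replicates they were 4.77 and 6.52 kb, and 3.54 and 5.36 kb. With version 4.0.1 the segments of both classes were alike in length, with ratios of 1.04, 1.00 and 1.05 in the control and the long-pulse replicates. With version 4.0.3 they were shorter in high-score forks of all 4 libraries, with ratios of 0.605 and 0.595 in the long-pulse replicates and 0.731 and 0.660 in the short-pulse replicates. In the long-pulse replicate 1, for example, high-score forks had a median BrdU segment of 8.76 kb with version 4.0.1 and 4.72 kb with 4.0.3, and low-score forks had 8.76 and 7.80 kb. The whole track was shorter in high-score forks in 5 of 5 libraries, by a mean log2 ratio of -0.22 ± 0.21 (SD, n = 5), of -0.024 in 4.0.1 blocks and -0.50 in 4.0.3 blocks.

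The stretch between the EdU and BrdU segments, called as part of neither, was shorter in high-score forks whichever version was used. This measure, the track length less the lengths of both segments, was chosen after its values were seen. Its median in high-score and low-score forks was 1.09 and 1.38 kb among control forks. It was 1.17 and 1.59 kb in the long-pulse replicate 1 and 1.11 and 1.50 kb in replicate 2. In the short-pulse replicates 3 and 4 it was 1.16 and 2.2 kb, and 0.755 and 2.01 kb. The mean difference was -0.685 ± 0.445 kb (SD, n = 5), with the short-pulse libraries at the wider end. Within version 4.0.1 the differences were -0.289 kb in the control, -0.459 kb and -0.399 kb in the long-pulse replicates. Within version 4.0.3 they ran from -0.796 kb in the long-pulse replicate 2 to -1.25 kb in the short-pulse replicate 4. Pooled over libraries, the stretch was also shorter at the highest than at the lowest scores. In 4.0.1 blocks its median was 1.64 kb for scores under 0.1 and 0.966 kb for scores of 0.9 and over. In 4.0.3 blocks it was 2.65 and 0.608 kb, but the mix of libraries changed along the score. With 4.0.3 it was 3.01 and 2.71 kb in the long-pulse replicate 1, the latter over 9 forks, and 2.82 and 1.695 kb in replicate 2. It was 2.685 and 0.7075 kb in the short-pulse replicate 3, and 1.96 and 0.546 kb in replicate 4. The fall was not steady: in the control it was 0.808 kb from 0.7 to 0.9 and 1.14 kb from 0.9 up.

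The analogue content of the BrdU segment differed between the classes in opposite directions with the 2 caller versions. The files give, for each segment, a pair of fractions of thymidine positions called, a large and a small fraction, without stating which analogue each one counts. Which segment a pair describes was read from the data: over 600 forks the denominators of the first pair had a rank correlation of 0.854 with EdU length and 0.301 with BrdU length, and those of the second pair 0.249 and 0.892. The large fraction of the BrdU segment was higher in high-score forks with version 4.0.1. Its medians were 0.776 against 0.765 in the control, 0.816 against 0.796 in the long-pulse replicate 1 and 0.824 against 0.797 in replicate 2. With version 4.0.3 it was lower in high-score forks, at 0.829 against 0.913 and 0.844 against 0.916 in the long-pulse replicates. In the short-pulse replicates it was 0.797 against 0.916 and 0.787 against 0.902. The direction was thus opposite between versions within both libraries that hold the 2 versions.

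The small fraction of the BrdU segment ran the other way. With version 4.0.1 its median in high-score and low-score forks was 0.00784 and 0.0117 in the control, 0.00999 and 0.0169 in the long-pulse replicate 1, and 0.0100 and 0.0161 in replicate 2. With 4.0.3 it was 0.0241 and 0.00848 in replicate 1, 0.0166 and 0.00670 in replicate 2, 0.0167 and 0.00483 in the short-pulse replicate 3, and 0.0211 and 0.00434 in replicate 4. The EdU segment differed less. Its large fraction was higher in high-score forks by 0.00117 to 0.00378 in the 3 libraries with version 4.0.1 and lower in high-score forks in all 4 libraries with 4.0.3, with differences from -0.00230 to -0.0268. Along the score, the large fraction of the BrdU segment was 0.788 under 0.1 and 0.829 at 0.9 and over in 4.0.1 blocks. In 4.0.3 blocks it was 0.933 under 0.1 and 0.799 at 0.9 and over, with 0.878 between 0.3 and 0.5 and 0.824 between 0.5 and 0.7. Pooled over these blocks, the difference between neighbouring bins was thus largest across the threshold, but this did not hold in every library. In the short-pulse replicate 4 the fraction was 0.857 from 0.3 to 0.5 and 0.783 from 0.5 to 0.7. In the long-pulse replicate 2 the largest fall lay higher, from 0.870 between 0.5 and 0.7 to 0.813 between 0.7 and 0.9. In the short-pulse replicate 3 it lay there too, from 0.859 to 0.787. The mix of libraries also changed along the score.

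**Figure D3:**
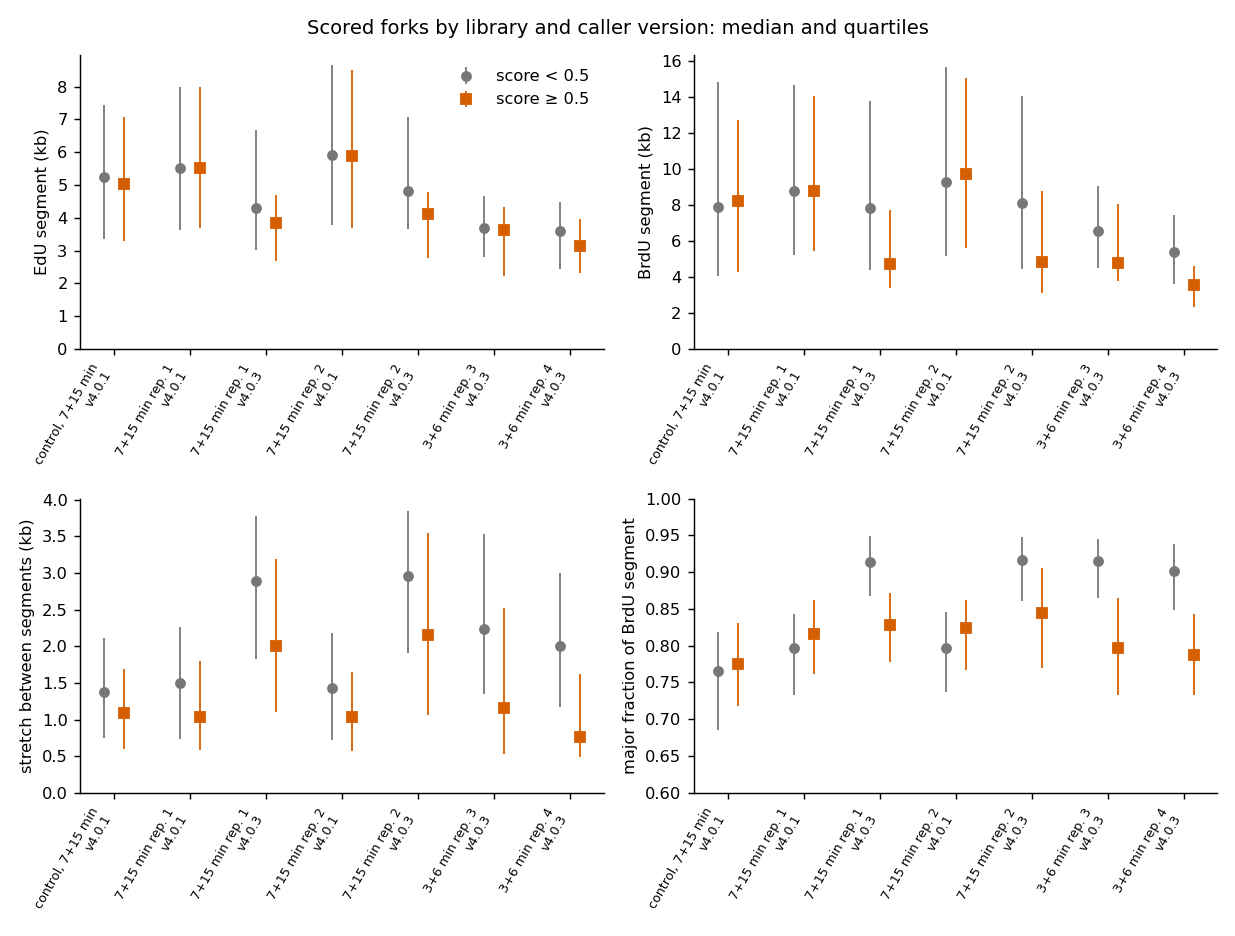
Segment measures of scored forks by library and caller version. The panels give the EdU segment, the BrdU segment and the stretch between them in kb, and the large fraction of the BrdU segment; points are medians and bars quartiles, grey for scores under 0.5 and orange for 0.5 or more. BrdU segments and the large fraction separate the classes with version 4.0.3, as at 4.72 against 7.80 kb and 0.829 against 0.913 in the long-pulse replicate 1, whereas the stretch between segments is shorter in high-score forks with both versions.

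Read length differed little between the classes, while the distances to the read ends differed more in some libraries. High-score forks sat on reads of median 68.8 kb in the control library, 64.3 and 63.0 kb in the long-pulse replicates, and 42.2 and 48.3 kb in the short-pulse replicates, against 67.9, 64.3, 63.9, 42.3 and 50.0 kb for low-score forks in the same order. The mean log2 ratio was -0.011 ± 0.026 (SD, n = 5; exact two-sided sign-flip test over libraries, p = 0.375, adjusted p = 0.696 after Benjamini-Hochberg correction over 13 such tests). From the BrdU end to the read end ahead, high-score forks had medians of 17.6, 15.1, 18.0, 14.5 and 15.1 kb in the same order, and low-score forks 20.5, 16.2, 19.0, 13.8 and 19.5 kb. The distance was shorter in 4 of 5 libraries, by -1.73 ± 1.94 kb on average (SD, n = 5; exact sign-flip test, p = 0.125, adjusted p = 0.406). Behind the EdU end, the read of high-score forks went on for 3.08 ± 2.42 kb more (SD, n = 5), a longer distance in 5 of 5 libraries (exact sign-flip test, p = 0.062, adjusted p = 0.271). That direction was -0.150 kb among forks lying 10 kb or more from both read ends. None of these differences passed the test.

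The high-score share was higher for leading-strand than for lagging-strand reads in 4 of 5 libraries. A read holds the leading nascent strand, made continuously, or the lagging one, made in short pieces, depending on its own strand and the direction of the fork. The control gave 25.6% of leading-strand and 26.2% of lagging-strand forks a high score. With version 4.0.1 the leading share was 3.49 percentage points above the lagging share in the long-pulse replicate 1 and 0.501 points in replicate 2. With version 4.0.3 it was 7.90 and 2.42 points above in those replicates, and 8.96 and 11.3 points above in the short-pulse replicates. These differences within versions were not tested.

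Neighbouring ends of other libraries were more often high-score around high-score than around low-score ends in these samples, but the difference did not pass its test. For every BrdU end, the scored ends of the other 4 libraries within 5 kb were counted. In the control, 24.9% of the 285 neighbours of high-score ends were themselves high-score, against 20.1% of the 851 neighbours of low-score ends. The shares were 28.3% and 23.9% in the long-pulse replicate 1, and 29.1% and 23.7% in replicate 2. In the short-pulse replicates they were 32.7% and 23.0%, and 21.1% and 20.2%. The mean difference was 5.03 ± 3.14 percentage points (SD, n = 5), higher in 5 of 5 libraries, with the smallest value, 0.899 points, in the short-pulse replicate 4. Without the long-pulse replicate 2 it was 3.04 points, higher in 3 of 4 libraries, and with reads under 100 kb left out it was 1.86 points, higher in 2 of 4. The exact sign-flip test gave p = 0.062, the smallest it can give, and an adjusted p of 0.271, so the difference did not pass the test. Each pair of ends counts for both of its libraries, so the 5 values are not independent and this p is too small.

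The difference was widest within 1 kb, a distance chosen after the values were seen and given without a test. There, 43.3% of 67 neighbours of high-score ends of the control were high-score, against 18.6% of 183 around low-score ends. The shares were 42.9% of 217 and 23.1% of 650 in the long-pulse replicate 1, and 45.2% of 230 and 23.7% of 672 in replicate 2. They were 36.8% of 19 and 23.5% of 68 in the short-pulse replicate 3, and 26.5% of 117 and 17.6% of 153 in replicate 4. The mean difference was 17.6 ± 6.44 percentage points (SD, n = 5), present in 5 of 5 libraries. Pooled, the shares were 52.9% and 26.8% up to 0.25 kb, 29.0% and 23.4% from 0.25 to 0.5 kb, and 35.7% and 19.7% from 0.5 to 1 kb. From 1 to 2 kb they were 25.0% and 22.7%, and from 2 to 5 kb 21.01% and 23.5%. From 20 to 50 kb they were 23.5% and 23.6%.

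The neighbours did not need to travel the same way. Within 1 kb, 40.1% of same-direction neighbours of high-score ends were high-score, against 23.9% around low-score ends. For forks moving in the opposite direction the shares were 41.8% and 19.4%. The share was also higher around ends of higher score, mainly above 0.5. It was 22.2% around ends with scores under 0.1, 21.2% from 0.1 to 0.3 and 24.6% from 0.3 to 0.5. Above that it was 31.0% from 0.5 to 0.7, 39.8% from 0.7 to 0.9 and 56.5% from 0.9 up. Within version 4.0.1 alone the shares within 1 kb were 40% and 14.7% in the control, 40.3% and 21.6% in the long-pulse replicate 1, and 42.0% and 19.9% in replicate 2. Within version 4.0.3 at most 9 neighbours of high-score ends lay within 1 kb in any library. Within 5 kb they were high-score less often than those of low-score ends in 4 of 4 libraries, by -7.38 points on average over 14 to 55 neighbours of high-score ends per library (exact sign-flip test, p = 0.125, with no lower value open to 4 libraries).

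No read was shared between libraries (0 of the reads with a scored fork). Of the 132 pairs of high-score ends from different libraries within 1 kb, 16 lay on reads with an end within 1 kb of each other, which is 12.1%, against 11.3% of the 670 pairs of low-score ends. Both read ends matched within 1 kb in 2 of the 132 and 1 of the 670 pairs. Reads of the same strand made up 63.6% of the high-score pairs and 52.5% of the low-score pairs. Within libraries, 73 pairs of high-score ends lay within 1 kb, and in 0 of them did both read ends match within 1 kb. In all, 229 of 2882 high-score ends (7.95%) had a high-score end of another library within 1 kb, against 371 of 10045 low-score ends (3.69%). An end can be counted here only where another library has a scored end nearby, and such neighbours were few. Within 1 kb, high-score ends had 650 scored neighbours in all, 40.6% of them high-score, against 1726 and 22.4% around low-score ends. The part of the members at recurring places is therefore not known.

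**Figure D4:**
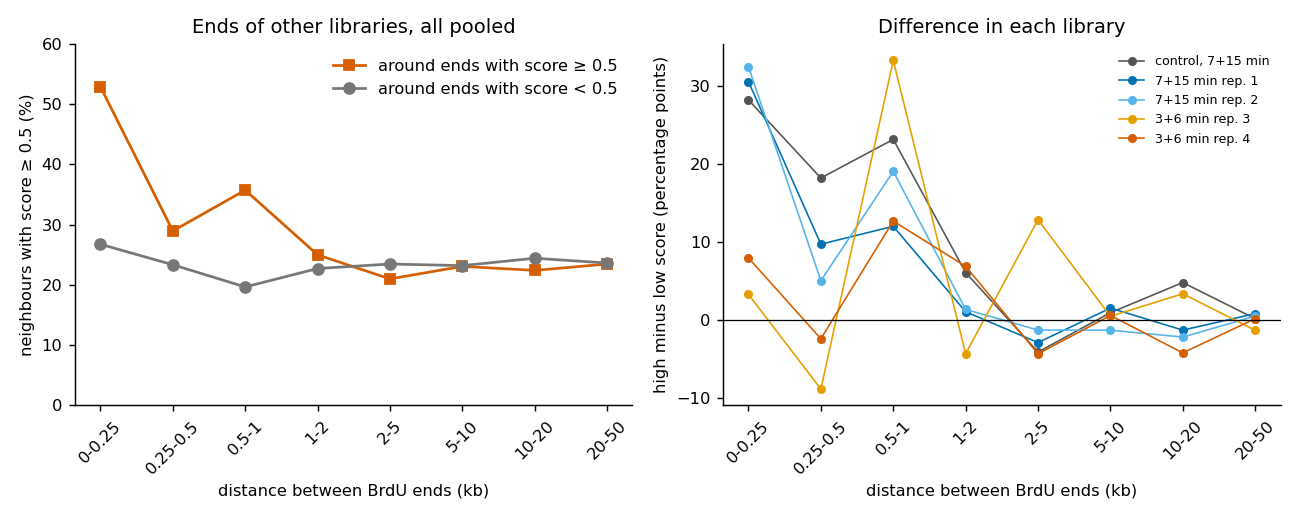
Share of neighbouring BrdU ends in other libraries that were high-score, by distance between ends in kb on the x axis. The left panel pools the libraries and gives the share in percent around high-score (orange) and low-score (grey) ends; the right panel gives the difference in percentage points in each library. The pooled lines part at 52.9% against 26.8% below 0.25 kb and meet beyond 1 kb, and the short-pulse replicate 3 swings most, with 19 neighbours within 1 kb.

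High-score ends linked by steps of at most 1 kb formed 27 groups of 3 or more ends, a grouping also chosen after the values were seen, while 2557 members, 88.7%, had no other member within 1 kb. Of the 27 groups, 24 held ends of more than 1 library and 17 held forks of both directions. Members came from all libraries and ran in both directions, so mixed groups can be frequent in any set of such ends. No background was computed for these counts, and they are not read as a result. Together the groups held 83 high-score ends among 91 scored ends, a share fixed by the way the groups were made. In 23 of them, fork tracks crossed the place with 2 kb to spare on either side, 65 tracks in all, so label was also called through these places on other molecules.

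The groups with 4 ends or with ends of 3 libraries follow, with positions on dm6, the genome build of the files, counted from 1. At 2L 1554350 to 1554474, 0.717 kb from haf, which encodes a leucine-rich repeat protein, 4 leftward high-score ends of 2 libraries lay within 125 bp, with scores from 0.754 to 0.988. They were 4 of 5 scored ends there, and 3 tracks crossed. At 3L 10523712 to 10523933, inside Rbfox1, a gene of an RNA-binding splicing regulator, 4 of 4 scored ends were high-score, 2 rightward and 2 leftward, within 222 bp. At 2R 15642233 to 15642258, inside CG42524, 3 leftward ends of 3 libraries fell within 26 bp with scores from 0.958 to 1, and 0 tracks crossed. At 3L 16763076 to 16763764, 2.65 kb from Nrt, the gene of the adhesion protein Neurotactin, 3 libraries gave 1 rightward and 2 leftward ends, and 3 tracks crossed.

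Ends of 3 libraries also met at 2R 14572834 to 14573705, inside the overlapping spans of LamC, a nuclear lamin gene, and ttv, an enzyme gene for making heparan sulfate. They had scores from 0.881 to 1, and 2 tracks crossed. Near CG2528, 11.1 kb away at 2L 21963304 to 21964058, 3 rightward ends of 3 libraries had scores from 0.705 to 0.901. Groups of 3 ends from 2 libraries included those in Pde1c and Ccn, named here because these genes also had the highest shares. The 3 ends of each group are among the 8 and 5 high-score ends counted in those shares, so group and share are not separate observations. Inside Pde1c, a cyclic nucleotide phosphodiesterase gene, 3 ends of 2 libraries met at 2L 11909357 to 11910395 and 3 tracks crossed. Inside Ccn, the gene of a secreted matrix-associated protein, 3 ends of 2 libraries met at 3L 17727128 to 17727612. Counted in fixed 10 kb tiles, 19 of 2437 tiles with a high-score end held ends of 3 or more libraries, among them those of Btk and Hipk, both kinase genes, and Nep4, a metallopeptidase gene. In the tile of Nep4 the 3 ends were all rightward and spread over 1.46 kb.

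The genes with most members were long genes with many scored ends, so counts are read against the 22.3% of all scored ends. The genes lovit, a synaptic vesicle transporter of histamine, and Myo81F, an unconventional myosin gene near the centromere of 3R, held 10 of 45 (22.2%) and 10 of 50 (20.0%), near the background. In l(2)41Ab 10 of 33 ends were high-score (30.3%), in kirre, an adhesion protein of myoblast fusion, 9 of 25 (36.0%), and in the axon guidance gene Sema1a 9 of 32 (28.1%). Dys, the dystrophin gene, held 8 of 22 (36.4%), Pzl, a relative of the Piezo channels, 7 of 18 (38.9%), and Glut1, a glucose transporter gene, 7 of 17 (41.2%). Over all 307 protein-coding genes of 50 kb or more, 590 of 2802 scored ends were high-score, 21.1% (exact interval 19.6 to 22.6%).

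Among protein-coding genes with 10 or more scored ends, the highest shares were 50.0% in Pde1c, 8 of 16, and 50.0% in Ccn, 5 of 10. They were followed by 46.7% in nAChRalpha6, a subunit of the acetylcholine receptor, with 7 of 15, by 45.5% in bnl, the FGF ligand Branchless, with 5 of 11, and by 41.7% in CG40470, with 5 of 12. At the other end Tet, a dioxygenase gene, had 0 of 15, which allows a share of up to 20.0%. The gene timeout, a relative of the clock gene timeless whose mammalian counterpart acts at replication forks, had 0 of 11, which allows up to 27.3%. Eip93F, an ecdysone-induced transcription factor gene, had 0 of 10, which allows up to 30.0%. The axon guidance gene sli had 1 of 19 (5.26%) and the translational repressor gene pum 1 of 18 (5.56%). These genes are the extremes of many with few ends each, and no test was run on them.

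Shares pooled over libraries depend on how many ends came from the short-pulse replicate 4, where high scores were most frequent. Without it, 20.1% of all remaining scored ends were high-score. CG40470 then had 1 of 8 (12.5%), Myo81F 5 of 40 (12.5%) and Dys 4 of 18 (22.2%), since that library gave 4 of the 5, 5 of the 10 and 4 of the 8 high-score ends of these genes. Without it bnl had 5 of 7 (71.4%), Pde1c 5 of 12 (41.7%), nAChRalpha6 6 of 14 (42.9%), and Ccn, which had no end from it, 5 of 10. Weighting each end by the share of its library and caller version gives 25.5% for Pde1c, 21.8% for Ccn, 29.0% for bnl and 28.5% for CG40470, in place of the common 22.3%.

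Short genes and gene families held too few ends for more than counts. Histone genes, which lie in a tandem repeat where a read may be placed at the wrong copy, had 7 high-score among 16 scored ends, 43.8% (exact interval 19.8 to 70.1%), in 7 different genes that included His3:CG31613 and His2A:CG33838. Ribosomal protein genes had 2 of 12, in RpL38 and RpS19a, and tRNA genes 1 of 4. Hox genes, the homeotic selectors of body segments, had 5 of 19, of which Antp held 4 of its 10 and Abd-B 1 of its 2. Genes of replication factors had 1 of 5, in Orc3, a subunit of the origin recognition complex. Every interval of these small lists includes the background of 22.3%.

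Broad genome position did not set the members apart. The pooled high-score share was 22.2% on 2L, 23.0% on 2R, 22.2% on 3L, 21.9% on 3R, 22.9% on chromosome 4 and 22.1% on X. Ends within 1 kb of either limit of a protein-coding gene (gene ends) made up 23.0% ± 4.42 of high-score and 24.4% ± 1.41 of low-score ends (SD, n = 5). The difference of -1.37 ± 5.10 points had no common direction, with 3.53 points in the control and -9.82 points in the short-pulse replicate 3 (exact sign-flip test, p = 0.75, adjusted p = 0.813). Without that library it was 0.747 points. Ends outside gene spans made up 32.7% and 32.4%, a difference of 0.30 ± 1.63 points (SD, n = 5; exact sign-flip test, p = 0.75). Ends within 5 Mb of the centromere side of an arm made up 19.3% and 18.1%, a difference of 1.20 ± 1.89 points (SD, n = 5; exact sign-flip test, p = 0.3125, adjusted p = 0.696), higher in 4 of 5 libraries.

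Differences in the share on X, on chromosome 4, in rightward direction and on reads with an origin or termination call were 0.0769 ± 0.419, -0.0961 ± 0.905, 1.13 ± 3.19 and -0.469 ± 4.38 points (SD, n = 5). Their exact sign-flip p-values were 0.6875, 0.8125, 0.5 and 0.8125. None of the tested differences, the neighbour comparison included, passed after adjustment, and with 5 libraries none could have passed at a level of 0.05.

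**Figure D5:**
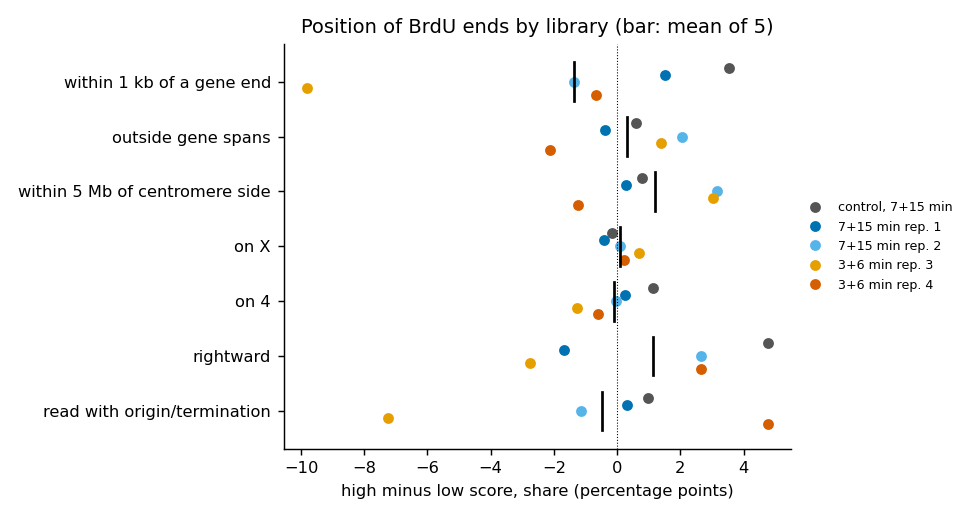
Differences in genome position between high-score and low-score BrdU ends. The x axis is the share among high-score ends less that among low-score ends in percentage points, each row is a class of position or read, coloured points are libraries and the bar is the mean of 5. Points fall on both sides of 0 in every row, and the short-pulse replicate 3 lies farthest out, at -9.82 points for gene ends.

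Sister forks, which leave the same origin in opposite directions, could be compared on the same molecule in 278 cases where both carried a score. Both were high-score in 23, 1 of them in 84 and none in 171. In the short-pulse replicate 4, 69.6% of the 23 scored sisters of high-score forks were high-score, against 20.0% of the 35 sisters of low-score forks. Each pair counts from both sides, so these values rest on 29 pairs, 8 with both high-score, 7 with 1 and 14 with none. The shares were 32.1% and 19.4% in the long-pulse replicate 2, 22.9% and 18.9% in replicate 1, and 26.7% and 26.8% in the control. The short-pulse replicate 3 had 1 sister of a high-score fork. The mean difference was 11.4 ± 22.7 points (SD, n = 5; exact sign-flip test, p = 0.375, adjusted p = 0.696), so the high value of that short-pulse library was not shared, and without it the mean was 1.87 points.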

How the data were processed

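Per the file headers, DNAscent (forkSense) 4.0.1 or 4.0.3 called the forks, and minimap2 2.24, SAMtools 1.10 and dm6 are named in the submitters' processing notes. How bases were called is not given in the sources used. The deposited fork files gave other values (coordinates and lengths in bp), fractions of thymidine positions and a score per fork. From these deposited values, medians and shares were computed per library with Python 3.11.15, scipy 1.17.1, pandas 2.3.3, numpy 2.4.6 and, for figures, matplotlib 3.10.9. Scored forks per library numbered 387 to 5886, which sets the counting error. Differences over 5 libraries were tested by exact two-sided sign flips, Benjamini-Hochberg adjusted over 13, with EdU length kept in that family but described without its p. Clopper-Pearson intervals are at 95%, and a count of 0 allows 3 counts. Simulated data were used to test the scripts. Genes came from a RefSeq table of assembly Release 6 plus ISO1 MT with 13922 protein-coding genes on the arms, without strand or exons.

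Named genes followed rules: tiles of 10 kb with high-score ends of 3 or more libraries, the 10 protein-coding genes with most such ends, the 5 highest and 5 lowest shares among genes with 10 or more scored ends, and up to 4 members per gene list. Genes at groups of ends within 1 kb were picked once values were known. The members and lists were chosen with earlier results of these data known. Alternatives changed the score threshold, read filters, caller version, distances and libraries. The library with HU and the gradient library were not used, and no sequence around fork ends was analysed here.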

Additional observations from a re-analysis of the deposited data

Results flagged for a closer look

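High-score and low-score forks differed in opposite directions in the 2 labelling schemes for a few analogue fractions, with every library of a scheme on the same side. The large fraction of the EdU segment was 0.00257 higher in high-score forks of the long-pulse replicates 1 and 2 and differed by -0.0145 in the short-pulse replicates. The small fraction of the BrdU segment differed by -0.00532 in the long-pulse and 0.0143 in the short-pulse libraries. The large fraction of the BrdU segment differed by 0.0176 and -0.117. The differences between schemes were not tested. The same opposite directions of the BrdU fractions stood within the long-pulse replicate 1, where the large fraction differed by 0.0195 with version 4.0.1 and -0.0845 with version 4.0.3, and within replicate 2, by 0.0264 and -0.0722. In 4.0.3 blocks alone all 4 libraries of both schemes lay on the same side.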

How the results depend on the processing

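All differences were taken within libraries, which pairs the classes by library. By replicate number across labelling groups, no paired analysis was possible because these share fewer than 2 numbers. Of 241 alternatives, 196 were counted as the same, 38 turned the direction and 7 moved a value. Tested differences were judged by direction alone. Described values also had to stay within the spread between libraries, and tile counts within a set factor. The cause of the changes was not tested. Only EdU length, track length and distance ahead kept their direction under every alternative run. The planned AT content test was not run without a genome. Few forks on long reads limit that setting. Differences are high-score less low-score, log2 for lengths and percentage points for shares.

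With 4.0.3 blocks alone, BrdU length was -0.63, track -0.50, the BrdU small fraction 0.0135, the EdU small fraction 7.84e-05, rightward -1.66, X -0.441, origin or termination 0.385, neighbours -7.38 and sisters -2.95. With 4.0.1 blocks alone, chosen after seeing the data, BrdU length was 0.043, read length 0.019, the EdU large fraction 0.00205, the BrdU small fraction -0.00561, the BrdU large fraction 0.0187, gene ends 1.11, X -0.0550 and chromosome 4 0.476. With a score of 0.8 or more, gene ends were 2.12, outside genes -0.660, centromere side -1.14 and chromosome 4 0.219. With a threshold of 0.3, gene ends were 1.05, centromere side -0.342 and X -0.220. The high-score share was 42.6% at 0.3 and 9.53% at 0.8. With ends 10 kb inside the read, distance behind was -0.150 kb, the EdU small fraction 0.000480, outside genes -1.64 and centromere side -1.39. On reads of 100 kb or more, over 4 libraries, the EdU small fraction was 3.05e-05, rightward -6.63, X -2.57, chromosome 4 0.966 and origin or termination 0.960. Tiles of 5 and 20 kb with 3 or more libraries numbered 10 and 38, against 19.

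Leaving out each library in turn gave -0.137 to 0.906 outside genes, -2.59 to 0.747 at gene ends, -0.0744 to 0.203 on X, -0.405 to 0.196 on chromosome 4 and -1.78 to 1.23 for origin or termination. It gave 3.04 to 6.85 for neighbours and -0.00634 to 0.00101 for the EdU large fraction and -0.000646 to 0.00489 for the BrdU small fraction. The reversals came without the long-pulse replicate 2 (-0.137 outside genes), without the short-pulse replicate 3 (0.747, -0.0744, 0.196 and 1.23 in the order gene ends, X, chromosome 4, origin or termination) and without replicate 4 (0.00101, -0.000646 and 0.0280, the last for chromosome 4).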

Other observations

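Forks without a score had their own lengths. The medians here pool all libraries, pulse lengths and caller versions, which the classes hold in unlike shares. Those with the code -1, all beside a called termination, had a median BrdU segment of 2.96 kb and a median EdU segment of 4.96 kb. Those with the code -3, of which 71.2% had under 3 kb of read ahead, had medians of 4.23 and 4.77 kb. The medians were 7.08 and 4.53 kb in high-score forks and 8.37 and 5.25 kb in low-score forks. Within libraries, the BrdU ratios of these 2 classes were 1.04, 1.00 and 1.05 with version 4.0.1 and from 0.595 to 0.731 with 4.0.3. The 31 forks with the code -2 had the shortest BrdU segments of these classes, 1.22 kb, beside EdU segments of 5.60 kb.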
